A study of Mus musculus with 2 samples.

Results

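Aminoacyl-tRNA synthetases are the enzymes that join each amino acid to its transfer RNA, the step that makes an amino acid usable by the ribosome. Animal cells keep separate sets for the cytosol and for mitochondria. The mitochondrial enzymes are encoded in the nucleus by genes of their own, most with names ending in 2, whereas Gars and Kars each encode both the cytosolic and the mitochondrial form of an enzyme. Some cytosolic members sit together in a multi-synthetase complex held by scaffold proteins, and many cytosolic genes are described as targets of ATF4, the transcription factor of the amino acid and integrated stress responses. In peripheral nerve several of these genes, Gars, Yars and Aars among them, are known from inherited neuropathy, and recessive defects of the mitochondrial enzymes from brain disease.

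The 36 synthetase genes described here, 20 cytosolic and 16 mitochondrial, were taken by name from a fixed list matched to the array's own gene annotation. They are 36 of 22128 annotated genes on the array, and all 36 had a signal well above background on both arrays, as did 14009 genes in all. They are covered by 46 probes, 24 for cytosolic and 22 for mitochondrial genes, with 1 spot each.

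RNA came from dissociated hippocampal cultures of embryonic day 16.5 ICR mice, harvested at 12 days in vitro, with 1 single-colour Agilent array for the culture kept in tetrodotoxin (TTX) and 1 for the control culture. TTX blocks voltage-gated sodium channels and so action potentials, and it was present for the last 2 days. The submitters give its dose as 2 µM in one place, the design text, and as 2 mM in another, the source name. Both cultures grew with B18 supplement, 5.5% serum and 5 µM Ara-C, an inhibitor of cell division used against glia. With 1 array a group there was no test of any difference, no p-value is given, and every statement below is about these 2 cultures only. In such mixed cultures fewer cells of a type and less RNA per cell cannot be told apart. Well above background were 52.2% of spots on the TTX array and 54.2% on the control array. Arc, a gene induced by synaptic activity, had a signal of 127 in TTX and 4637 in control (log2 difference -5.19).

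All 6 neuronal markers looked at were measured on both arrays, with summed signals of 161228 in TTX and 154779 in control. They ran both ways: 4 of 6 were higher in TTX, among them Tubb3 (log2 difference 0.47) and Map2 (0.35), while Syt1 was at -0.29 and Rbfox3, the furthest apart, had 12604 in TTX and 22152 in control (-0.81). The cultures also held glia. Of the 6 astrocyte markers 5 were higher in TTX, with summed signals of 54935 in TTX and 45730 in control, and Gfap was the furthest apart (log2 difference 0.78). Of 6 microglia markers 4 were measured, summing to 21146 in TTX and 19068 in control, while Cx3cr1 and P2ry12 were not well above background on both arrays. Itgam alone made up 20314 of that sum in TTX and 18160 in control, and the others ran both ways (Tyrobp 0.60, Csf1r -0.36, Aif1 -0.05). All 4 measured oligodendrocyte lineage markers of 6 were higher in TTX (summed signals of 1674 in TTX and 1436 in control, median difference 0.27, Olig1 0.78), as were all 4 measured fibroblast markers of 5 (943 in TTX and 777 in control, median difference 0.19). Of 4 endothelial markers 2 were measured, both dim and lower in TTX (95.5 in TTX and 106 in control). The part of these cells in the synthetase differences was not tested.

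No synthetase at its brightest probe differed by as much as 1.5-fold between TTX and control after quantile normalization. Lars was more than 1.5-fold lower in TTX when scaled on the 75th percentile or left unscaled, and Aars, Aars2 and Lars were with spike-in scaling. The differences were small and mostly on the low side: 15 of 20 cytosolic and 12 of 16 mitochondrial genes were below 0, against 48.8% of all measured genes. The median log2 difference, TTX minus control, was -0.15 for the cytosolic set and -0.11 for the mitochondrial set, against 0.01 for all measured genes. With spike-in scaling the medians were -0.31 and -0.23, against -0.09 for all measured genes. The whole range of the 36 genes ran from -0.53 (Mars2) to 0.20 (Hars2), and 21 of them lay within 0.2 of 0. Of all measured genes 8.64% were lower in TTX by 1.5-fold or more and 7.66% at least 1.5-fold higher, which in a set of 36 is a background of few genes of either kind.

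Signals are linear brightness after quantile normalization, and all differences are on the log2 scale. The error given with a difference is the scanner software's own error for the pair of spots, which is close to 0.20 for bright spots and rises for dim ones. It covers the measurement on an array and not the variation between cultures. From 261 probes printed 10 times on each array, the SD of a single-spot difference was 0.15 over all signals, 0.27 in the dimmest of 5 signal classes and 0.06 in the brightest.

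**Figure D1:**
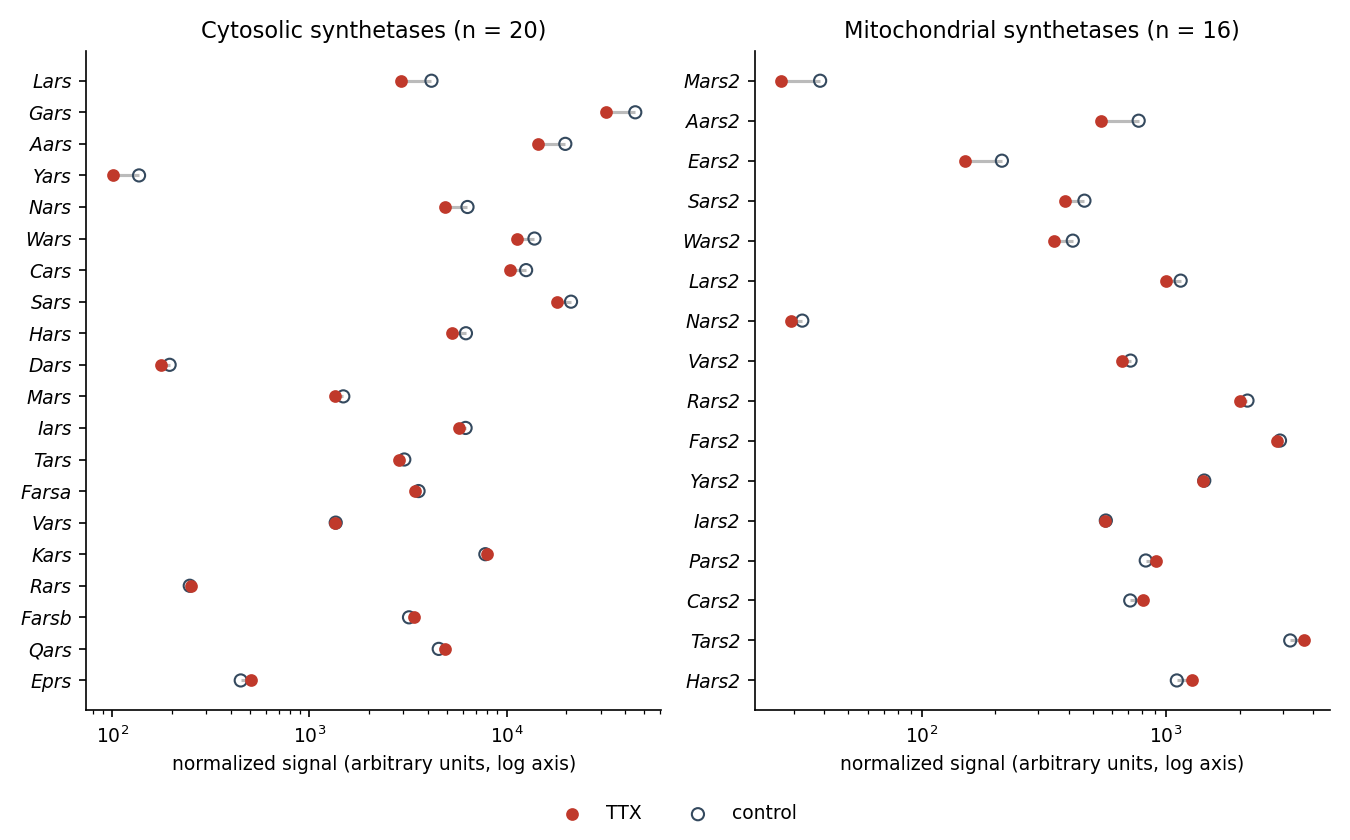
Normalized signal of each synthetase at its brightest probe, on a log axis, in the TTX culture (filled red) and the control culture (open), with cytosolic genes on the left and mitochondrial genes on the right, ordered by their difference. Gaps between the 2 points are small for all 36 genes, and the TTX point lies to the left of the control point in 15 of 20 cytosolic and 12 of 16 mitochondrial genes.

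The first letter of a member's name is the code of its amino acid, so that Lars is leucyl-tRNA synthetase. Lars had a signal of 2921 in TTX and 4163 in control, 29.8% lower in TTX (log2 difference -0.51 ± 0.20, scanner error). Glycyl-tRNA synthetase, Gars, had 31969 in TTX and 44995 in control (-0.49 ± 0.20; probe at chr6:55029377-55029436, mm9). Alanyl-tRNA synthetase, Aars, had 14469 in TTX and 19875 in control (-0.46 ± 0.20; probe at chr8:113579376-113579434, mm9). These 3 were the lowest of the cytosolic set. Tyrosyl-tRNA synthetase, Yars, followed with 100.4 in TTX and 137 in control (-0.45 ± 0.22; probe at chr4:128896792-128896851, mm9). Yars was the dimmest gene of the cytosolic set, and with another background correction (normexp) its difference was -0.23. Each of the 4 was lower in TTX by more than 2 scanner errors, as were 13.5% of all measured genes, and 11.3% of measured genes were as low in TTX as Gars or lower.

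The next cytosolic members were asparaginyl-tRNA synthetase (Nars, 4882 in TTX and 6340 in control, -0.38), tryptophanyl-tRNA synthetase (Wars, 11280 in TTX and 13860.5 in control, -0.30) and cysteinyl-tRNA synthetase (Cars, 10436 in TTX and 12573 in control, -0.27). Sars, for serine, and Hars, for histidine, were each at -0.23. None of these 5 passed 2 scanner errors at its brightest probe. At the other end, the cytosolic genes above 0 were Eprs (0.17), the fused enzyme for glutamate and proline, Qars (0.10) for glutamine, Farsb (0.09), the beta subunit for phenylalanine, Rars (0.03) for arginine and Kars (0.02) for lysine. The values of Farsb, Qars, Kars and Rars changed sign under at least 1 other scaling, while that of Eprs did not. Of the genes that encode a cytosolic and a mitochondrial form together, Gars was thus among the lowest and Kars was level.

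**Figure D2:**
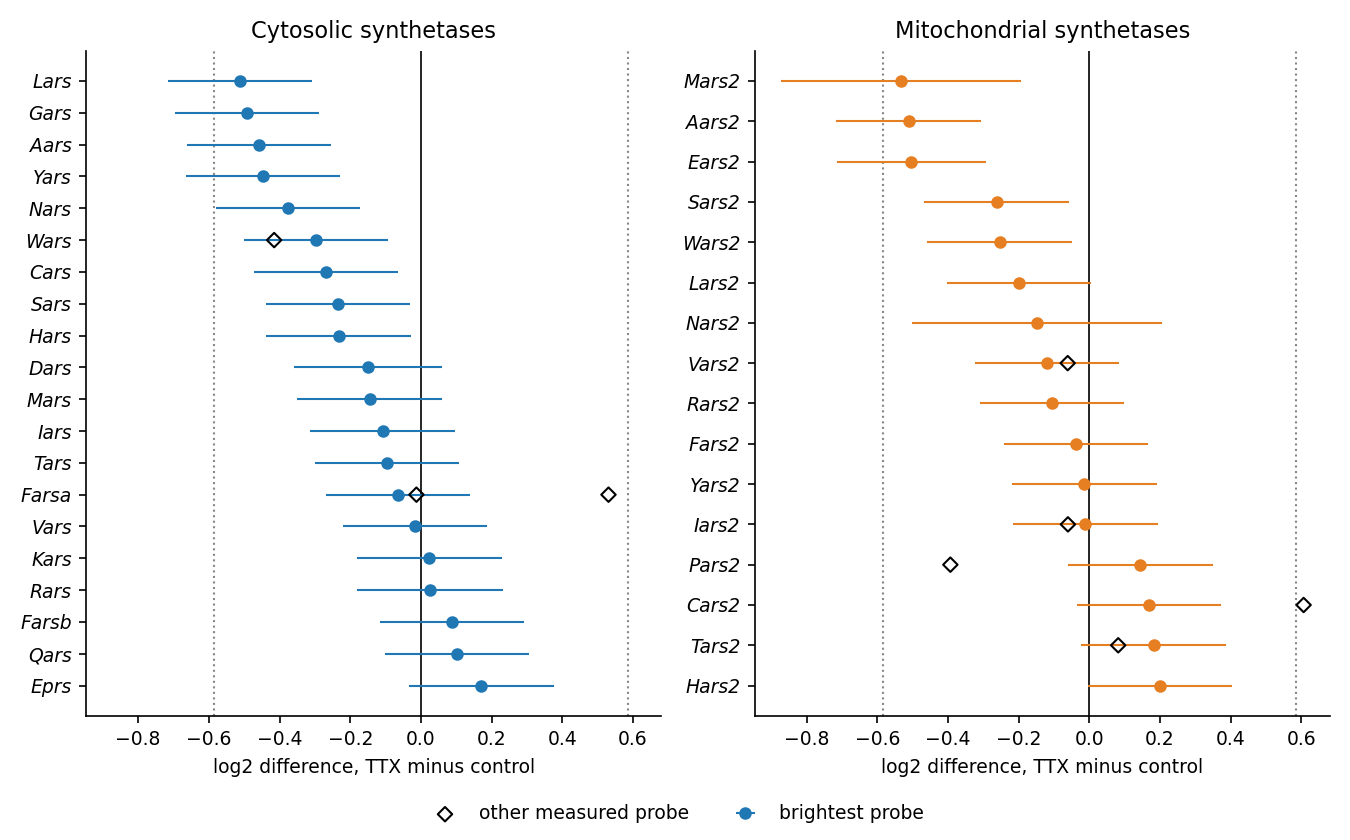
Log2 difference, TTX minus control, of each synthetase at its brightest probe (filled circles, bars are 1 scanner error) and at other measured probes (open diamonds), cytosolic on the left and mitochondrial on the right. Dotted lines mark 1.5-fold, which no brightest probe reaches after quantile normalization, and the second probe of Cars2 lies beyond the line on the high side.

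The multi-synthetase complex and the free cytosolic enzymes were described apart, with no test of their difference. Of the 8 complex enzymes, Dars, Eprs, Iars, Kars, Lars, Mars, Qars and Rars, 4 were below 0 with a median of -0.04, and Lars at -0.51 was the only one of them beyond 0.2. Of the 12 others 11 were below 0, with a median of -0.25. The scaffold proteins of the complex were at 0.05 (Aimp1, 4423 in TTX and 4268 in control), -0.32 (Aimp2, 7968 in TTX and 9933 in control) and 0.11 (Eef1e1). By the structural classes of the catalytic fold, the 10 class I genes had a median of -0.13 with 7 below 0, and the 10 class II genes -0.19 with 8 below 0. Eprs holds an enzyme of each class and was counted with class I.

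The mitochondrial set held its largest differences in Aars2, Ears2 and Mars2. Aars2, for alanine, had a signal of 542 in TTX and 772 in control (-0.51 ± 0.20; probe at chr17:45657547-45657606, mm9). Ears2, for glutamate, had 150.2 in TTX and 213 in control (-0.50 ± 0.21; probe at chr7:129182565-129182624, mm9). Both were lower by more than 2 scanner errors, 2 of 16 mitochondrial genes, a share no higher than the 13.5% of all measured genes. Mars2, for methionine, had the lowest value of all 36 but was dim, with 26.5 in TTX and 38.4 in control, and its error was larger (-0.53 ± 0.34). Sars2 (-0.26), Wars2 (-0.25) and Lars2 (-0.20) came next, and Nars2 (-0.15), another dim gene, changed sign with 75th percentile scaling. With normexp background correction Ears2 was at -0.34 and Mars2 at -0.14.

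The 4 mitochondrial genes above 0 were Hars2 (1271 in TTX and 1106 in control, 0.20), Tars2 (3653 in TTX and 3220 in control, 0.18), Cars2 (802 in TTX and 713 in control, 0.17) and Pars2 (913 in TTX and 825 in control, 0.14). No mitochondrial member was higher by more than 2 scanner errors at its brightest probe, where 12.9% of all genes were. Hars2, Tars2 and Cars2 kept their sign under every alternative run, and Pars2 did under all but the mean over its probes. Yars2, Iars2 and Fars2 were within 0.05 of 0.

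Cytosolic and mitochondrial genes were also set side by side for the same amino acid, in 15 pairs, with Eprs against the mean of Ears2 and Pars2 and the mean of Farsa and Farsb against Fars2. The cytosolic gene had the lower value in 8 pairs and the higher in 7, and the median of cytosolic minus mitochondrial was -0.04, from -0.44 (cysteine) to 0.39 (methionine). Cysteine (Cars -0.27, Cars2 0.17), histidine (Hars -0.23, Hars2 0.20) and tyrosine (Yars -0.45, Yars2 -0.01) had the cytosolic gene lower by the widest margins. Methionine ran the other way (Mars -0.15, Mars2 -0.53), as did glutamate and proline. In alanine, serine and tryptophan the pair was low together, with Aars and Aars2 at -0.46 and -0.51. Both genes were below 0 in 9 pairs and of opposite sign in 6. The cytosolic median was lower than the mitochondrial one by 0.03, and with 1 array a group the error of that gap is not known.

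**Figure D3:**
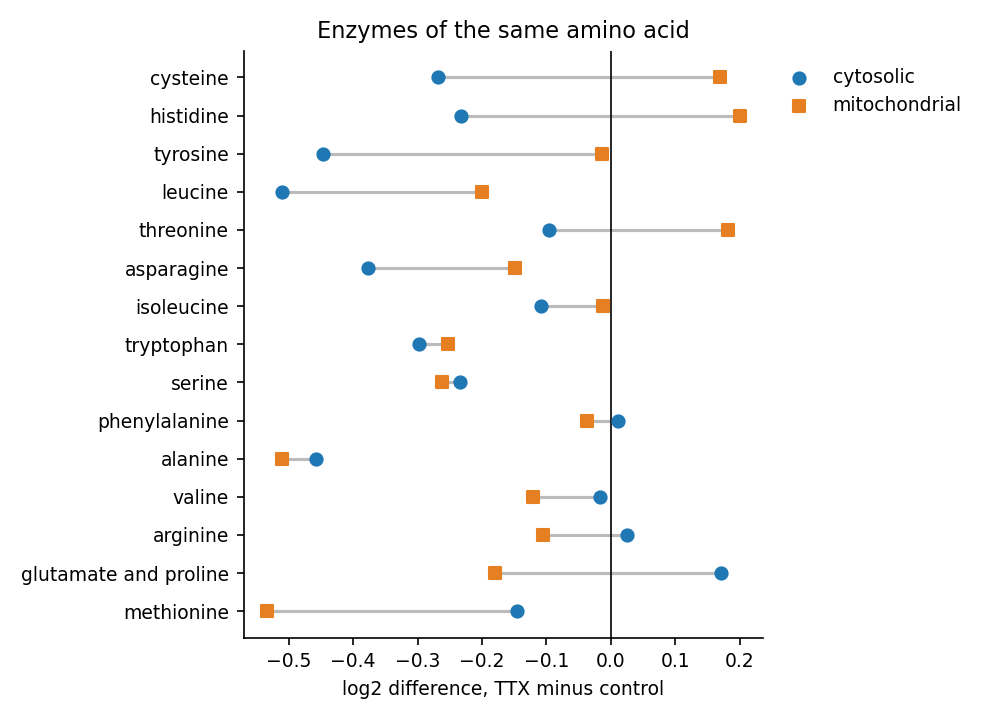
Log2 difference, TTX minus control, of the cytosolic (blue circles) and mitochondrial (orange squares) enzyme genes of each amino acid, ordered from the pair with the cytosolic gene furthest below its partner (cysteine) to the reverse (methionine). The cytosolic point has the lower value, further to the left, in 8 of 15 pairs.

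Of the 9 members with more than 1 probe, 7 had at least 2 measured probes. The probes of Wars (-0.30 and -0.42), Iars2 (-0.01 and -0.06), Vars2 (-0.12 and -0.06) and Tars2 (0.18 and 0.08) gave like values. Those of Farsa did not: the brightest, at 3423 in TTX and 3580 in control, gave -0.06, the next -0.01, and the dimmest, at 206 in TTX and 142 in control, gave 0.53. The second probe of Cars2 gave 0.61 (345 in TTX and 226.5 in control), which is past 1.5-fold, against 0.17 at the brighter probe. The dim probe of Pars2 gave -0.39 against 0.14. Coordinates of 7 probes span more genome than the probe's own 60 bases.

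Aars is shown with its probe sequences because its probes were furthest apart. The bright probe gave -0.46, whereas the other was well above background in control only, with signals of 12.5 in TTX and 55.6 in control. With its TTX signal set to the lowest signal well above background on that array (19.6), the dim probe was 2.83-fold lower in TTX. It rests on 1 spot an array, and the scanner error of its log2 difference was 0.60. The probes, as the array files give them 5′ to 3′ on mm9, are these, with no base marked.

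Aars bright probe, chr8:113579376-113579434: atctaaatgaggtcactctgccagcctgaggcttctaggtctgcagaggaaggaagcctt

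Aars dim probe, chr8:113580058-113580117: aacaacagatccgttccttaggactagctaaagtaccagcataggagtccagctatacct

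ATF4 is a transcription factor whose protein is made when translation initiation is held back, and it is known for switching on amino acid synthesis, import and charging genes. Of the 20 cytosolic synthetases, 13 are commonly described as its targets, mainly from mouse and human cells in culture. Of these 13, 12 were below 0, with a median of -0.27 and Eprs as the exception. The 7 cytosolic genes not on that list, Dars, Farsa, Farsb, Hars, Kars, Qars and Rars, had a median of 0.02 with 3 below 0 and a range of -0.23 to 0.10. The median of these 7 changed sign with the scaling, to -0.11 when scaled on the 75th percentile, -0.11 if left unscaled and -0.17 if scaled on spike-ins. Under those settings the median of the 13 was -0.36, -0.36 and -0.42. The 4 synthetases of the cytosol that passed 2 scanner errors all belong to the 13.

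Other ATF4 and amino acid response genes were further apart between the cultures than the synthetases were. Of 24 such genes 23 were measured, 20 were below 0, the median was -0.65, and 14 were lower by 1.5-fold or more, where 8.64% of all genes were, with none at least 1.5-fold higher. The furthest were the pseudokinase Trib3 (83.7 in TTX and 300 in control, -1.84), Chac1, which degrades glutathione (-1.46), the transcription factor Cebpb (-1.11) and the stress protein Nupr1 (-0.99). Atf4 itself, named here after its value was seen, had 38928 in TTX and 72338 in control (-0.89 ± 0.20), and the asparagine synthetase Asns, named likewise, 20154 in TTX and 31958 in control (-0.67). The lowest synthetase of the 13, Lars at -0.51, was thus higher than the median of that list. The list was not low throughout: Slc7a5 and Slc3a2, the chains of a large neutral amino acid transporter, also named after their values were seen, were each at 0.01.

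**Figure D4:**
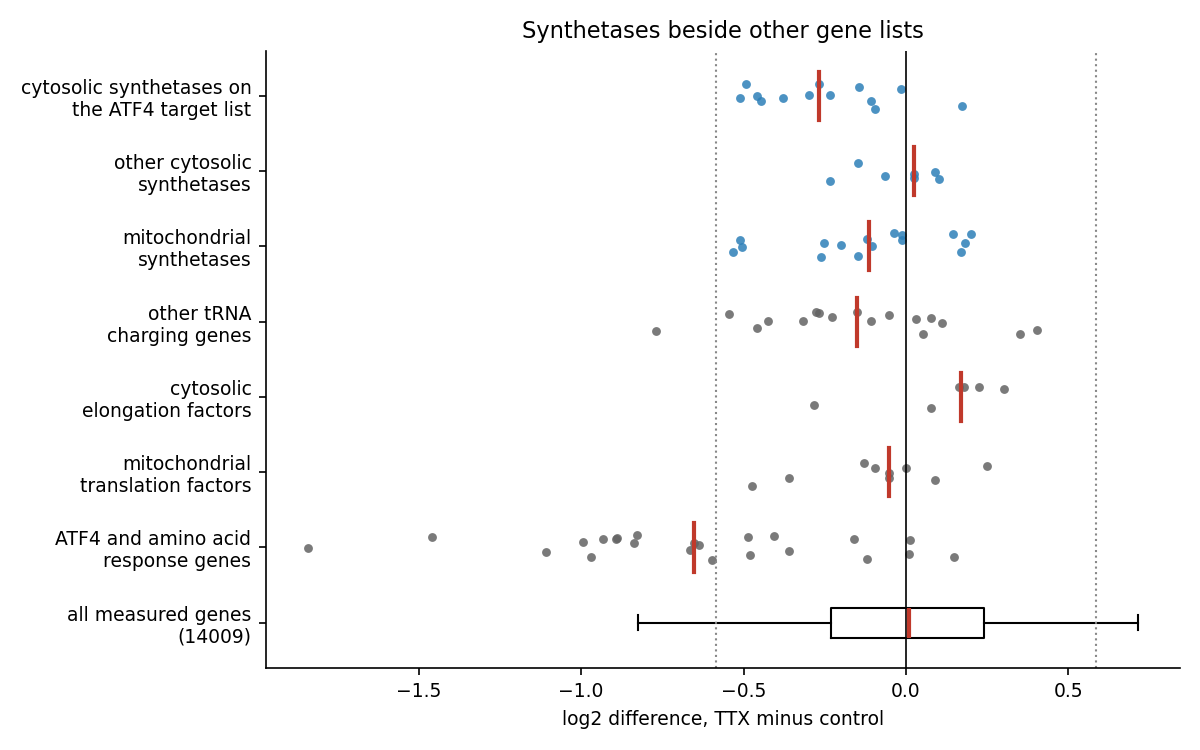
Log2 difference, TTX minus control, of single genes (points) in 7 gene lists with the list median (red bar), above a box for all 14009 measured genes (median, quartiles and whiskers at the 5th and 95th percentiles). Dotted lines mark 1.5-fold. All synthetase points, here after quantile normalization, stay inside those lines, and 14 of 23 ATF4 and amino acid response genes lie beyond the left one.

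The promoters of the synthetases were searched because ATF4, paired with C/EBP proteins, binds a composite element. Promoter windows of RefSeq, 250 bases before to 50 after the annotated start on GRCm38.p6, matched 27 of the 36 genes, 13 cytosolic and 14 mitochondrial. Cars, Hars, Lars, Nars, Rars, Vars, Wars, Hars2 and Pars2 had no window and were not searched. Lars, the lowest of the cytosolic set, is among them. The letters TGATGNAA, on either strand, occurred in 5 of the 13 cytosolic genes (38.5%), Aars, Gars, Iars, Tars and Yars, and in 0 of the 14 mitochondrial genes, against 4.51% of all 27025 genes with a window. Of 22 ATF4 and amino acid response genes with a window 7 held it (31.8%). A match is a description of letters and not a binding site, and a window without it says nothing of the factor. Aars, Gars and Yars, which hold it, were at -0.46, -0.49 and -0.45, and Iars and Tars, which hold it as well, at -0.11 and -0.10. The dim Yars was at -0.23 with normexp background correction. The 5 genes therefore did not share 1 value. All 5 belong to the 13 listed as ATF4 targets, of which 8 had a window. The lists and the letters were both chosen from what is known of ATF4, so matches in listed genes are no separate evidence.

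These promoters are shown 5′ to 3′ on the gene's strand with the matches in capitals. All but the match of Yars are on the opposite strand and so read TTNCATCA here. For Iars and Tars the 60 bases around the match are given.

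Aars, chr8:111033592-111033891, plus strand, matches beginning at base -112 and base 10 from the annotated start (base 1): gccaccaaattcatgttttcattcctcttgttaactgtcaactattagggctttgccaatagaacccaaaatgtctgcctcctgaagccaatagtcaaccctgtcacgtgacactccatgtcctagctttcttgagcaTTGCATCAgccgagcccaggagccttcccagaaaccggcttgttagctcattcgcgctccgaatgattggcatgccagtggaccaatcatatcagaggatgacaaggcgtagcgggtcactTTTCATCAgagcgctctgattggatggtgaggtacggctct

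Gars, chr6:55037751-55038050, plus strand, match beginning at base -30: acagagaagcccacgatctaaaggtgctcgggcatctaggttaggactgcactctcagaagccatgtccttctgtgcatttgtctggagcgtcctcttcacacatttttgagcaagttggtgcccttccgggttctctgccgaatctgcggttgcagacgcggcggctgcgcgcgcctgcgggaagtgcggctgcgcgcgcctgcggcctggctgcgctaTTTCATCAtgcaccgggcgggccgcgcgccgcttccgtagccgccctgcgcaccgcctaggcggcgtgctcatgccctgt

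Yars, chr4:129189653-129189952, plus strand, match beginning at base 4: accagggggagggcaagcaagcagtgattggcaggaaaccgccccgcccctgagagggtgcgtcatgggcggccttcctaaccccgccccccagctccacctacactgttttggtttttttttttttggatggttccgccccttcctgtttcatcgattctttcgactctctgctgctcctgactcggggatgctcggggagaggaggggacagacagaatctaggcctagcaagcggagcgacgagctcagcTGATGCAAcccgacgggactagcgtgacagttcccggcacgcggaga

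Iars, chr13:49682111-49682170, plus strand, match beginning at base 8: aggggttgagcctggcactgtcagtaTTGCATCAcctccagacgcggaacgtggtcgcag

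Tars, chr15:11399640-11399699, minus strand, match beginning at base -15: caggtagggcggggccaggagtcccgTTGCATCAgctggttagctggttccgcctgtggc

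The other genes that serve tRNA charging had a median like that of the synthetases. All 17 on that list were measured, 11 were below 0, the median was -0.15, and 1 was at least 1.5-fold lower. That gene was Dtd1, a deacylase that removes D-amino acids from tRNA, with 2444 in TTX and 4171 in control (-0.77 ± 0.20). Also low were Qrsl1 (-0.46), a subunit of the mitochondrial amidotransferase that makes glutaminyl-tRNA, and Sepsecs (-0.43, from a dim probe), which completes selenocysteinyl-tRNA.

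Downstream of charging, elongation factors bring the loaded tRNA to the ribosome. The 6 cytosolic factors had a median of 0.17 with 1 below 0. Eef1a1 was at 0.30 (34424 in TTX and 27951 in control), Eef2, the translocase, at 0.22 and Eef1g at 0.18, while Eef1a2, the form of mature neurons and muscle, was at -0.28 (9766 in TTX and 11888 in control). The 9 mitochondrial translation factors had a median of -0.05 with 7 below 0, and Gfm1 (-0.47), the mitochondrial elongation factor G, was the lowest, followed by Tsfm (-0.36), with Mtif2 the highest (0.25). None of these 15 genes reached 1.5-fold in either direction.

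Brightness and spot position were looked at beside the medians. Among the 3931 measured genes with a signal between the quartiles of the cytosolic set, the median difference was 0.01, and among 2813 genes in the quartile range of the mitochondrial set it was 0.02. By position, the 11 cytosolic genes in rows 1 to 192 of the array had a median of -0.10 and the 9 in rows 193 to 384 one of -0.23. For the mitochondrial set these were -0.10 (7 genes) and -0.12 (9 genes), and for all measured genes 0.02 and 0.00.

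**Figure D5:**
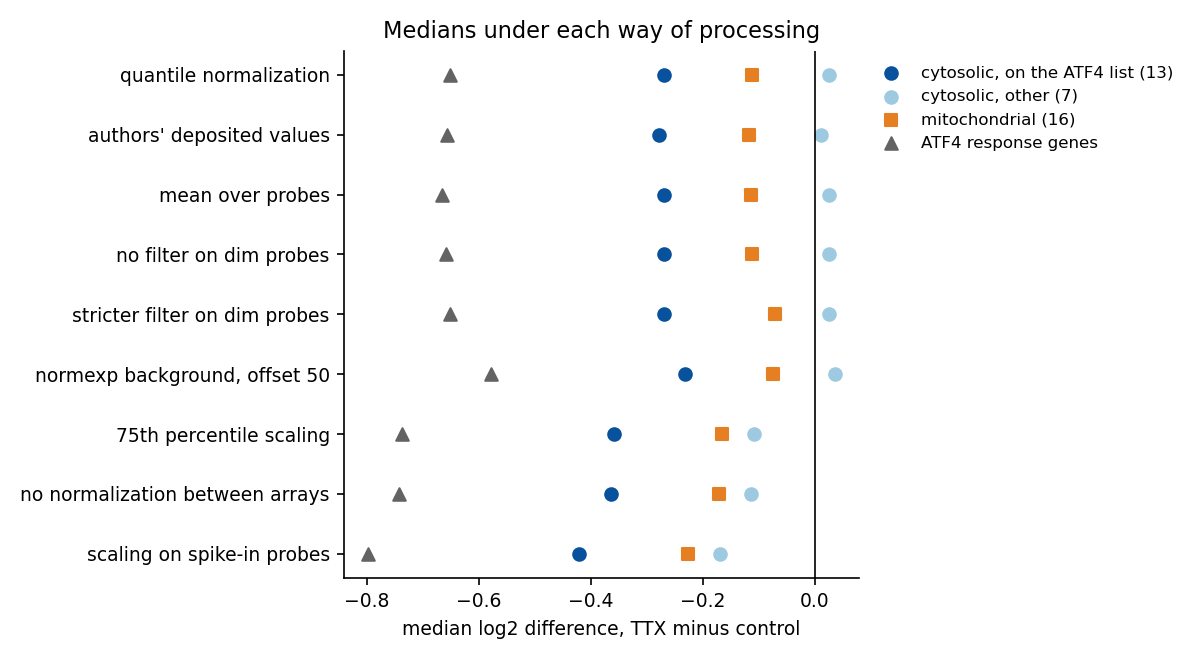
Median log2 difference, TTX minus control, of the 13 ATF4-listed cytosolic synthetases (dark blue), the 7 other cytosolic synthetases (light blue), the mitochondrial synthetases (orange squares) and the ATF4 and amino acid response genes (grey triangles) under quantile normalization and 8 other ways of processing. The order of these medians is the same in each row, with the 7 others the highest. The median of the 7 others lies above 0 or below it depending on the scaling.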

How the data were processed

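Total RNA of 1 TTX and 1 control culture was hybridized to Agilent 8x60K mouse arrays in Cy3. Spot intensity was deposited by the authors on a linear scale, background-subtracted and detrended as processed signal per the file headers, which name Feature Extraction 10.7.1.1, against 9.5.1.1 in the submitters' processing notes. The authors' deposited value table holds linear intensity with a median of 24.9 in each column, quantile normalized per the series' design text. All log2 values were computed here from what the authors deposited.

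Here outlier spots (170 on TTX, 131 on control) were left out, processed signals of non-control spots were quantile normalized on the log2 scale, and the spots of a probe were averaged. A probe counted as measured if a share of 0.5 or more of its spots passed the scanner software's well-above-background call on each array, and genes were given the value of the brightest such probe. Members were matched by the array's gene names, and other genes through RefSeq symbols of GRCm38.p6, which named 30815 of 55679 probes. Coordinates of probes are on mm9 as in the files, and none was placed on GRCm38. Python 3.11.15, numpy 2.4.6, pandas 2.3.3, R 4.3.3 and limma 3.58.1 were used, and the steps were tested on simulated data.

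Members, lists, the 1.5-fold rule and the motif were chosen with earlier results of these data known. All members could be named, and of each other list up to 4 genes with the largest differences. Intervals between cultures could not be had from 1 array a group. The number of arrays limits the precision.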

Additional observations from a re-analysis of the deposited data

How the results depend on the processing

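No paired analysis was possible because each group had 1 array. Tried were scaling on spike-ins (7 probes, median difference 0.06) or on the 75th percentile, no normalization, normexp background correction, the authors' deposited values, a looser and a stricter filter on dim probes, probe means, a 2-fold rule, pairing by amino acid, leaving out Gars and Kars and, added after seeing the data, a rule of 2 scanner errors. The cytosolic median moved to -0.31 with spike-in scaling, which put the median of all genes at -0.09, and was -0.24 on the 75th percentile and -0.25 without normalization. The mitochondrial median was -0.23 with spike-ins, -0.17 under each of those 2, and -0.07 under the stricter filter and under normexp. The causes were not tested. Cytosolic genes at least 1.5-fold lower numbered 1 when scaled on the 75th percentile and 1 without normalization (Lars each time) and 2 with spike-in scaling (Aars and Lars), where the mitochondrial count was 1 (Aars2). By the error rule the counts were 4 of 20 and 2 of 16, against 13.5% of all measured genes. The median of the 7 cytosolic genes not listed for ATF4 reversed to -0.11, -0.11 and -0.17 with 75th percentile scaling, no normalization and spike-in scaling. No synthetase was 1.5-fold higher at its gene value under any alternative run, and the cytosolic median stayed below the mitochondrial one, by 0.03 to 0.08, a gap whose error is not known. Of the 36 genes, 29 kept their sign under all 8 normalization, filter and probe alternatives (25 below 0 and 4 above), and Farsa, Farsb, Kars, Nars2, Pars2, Qars and Rars did not. Mars2 and Nars2 did not pass the stricter filter, and dim probes carry the larger errors.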
